A study of Saccharomyces cerevisiae with 51 samples.

Results

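The deletion mutants described here lack genes of cell polarity and bud-site selection. They were chosen by name from a list of 29 genes, and 28 of the 29 were found among the 6128 mutants of the barcode count table (*bud5*Δ, YCR038C, was not analysed here). All were strains of a haploid MATa pool of the yeast knockout (YKO) library, mostly BY4741 derivatives with a few from BY4740. The pool of strains had been transformed with GFP under the *FUS1* promoter (p*FUS1*-GFP, marked with *LEU2*). In all groups, the construct was targeted to *BAR1*, which encodes the Bar1 protease that cleaves α-factor. By the study's methods, a small part of the pool still lacked the marker or kept Bar1 function, and cells without the reporter cannot be told apart here from cells that did not express it. Cultures received either no pheromone (Un) or α-factor at 10 nM over 2 hr (In), and cells without GFP fluorescence were sorted from each (Un Gfp- and In Gfp-). The unsorted cells of the same kind of culture served as controls (Un presort and In presort). Each of the 4 groups had 3 replicates, grown from aliquots of a transformed pool, so p-values measure the spread between these cultures, sorts, and libraries. The sorted cells were grown to saturation before their DNA was extracted, and a strain's reads therefore depend on its growth after the sort as well as on the sort.

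Polarized growth in yeast is organized by the GTPase Cdc42, which is activated at a chosen site of the cortex and directs actin cables, septins, and secretory vesicles to it. In vegetative cells, the site is set by landmark proteins, axial ones in haploids and bipolar ones in diploids, that are read by the GTPase Rsr1. In cells exposed to pheromone, the same Cdc42 machinery is redirected toward the mating partner by the receptor and its G protein, and Cdc42 also activates the kinase Ste20 at the head of the MAPK cascade that induces *FUS1*. The comparisons ask which of these mutants were over- or under-represented among cells that lacked reporter expression, with and without α-factor.

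The libraries held 547624 to 10467729 reads before sorting and 192483 to 13140634 after it. The sorted pools were dominated by few strains: the 50 most abundant mutants took 10.7 to 13.6% of the reads before sorting and 83.3 to 90.6% after it. As a check of the sort, the pheromone pathway mutants *ste4*Δ, *ste5*Δ, *ste7*Δ, and *ste11*Δ had log2 fold changes between 9.19 and 9.39 in Un Gfp- and between 9.26 and 9.50 in In Gfp-. With most of the reads going to the top 50 mutants, the share of nearly every other strain is smaller after sorting: the median share ratio was 0.0397 in Un Gfp- and 0.0227 in In Gfp-, that is, 25.2 and 44.1 times lower. The log2 fold changes given here were therefore scaled with TMM, which sets a typical strain near 0 (median of all mutants tested −0.55 in Un Gfp- and −0.69 in In Gfp-). On total counts, the medians were −5.32 and −6.17. A strain can thus be enriched over the typical strain while its share of the pool shrinks.

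Among the polarity mutants, *bnr1*Δ stood far above the rest in both Gfp- pools, *gic1*Δ was moderately higher than the typical strain in both, and few others were called. In Un Gfp-, 23 of the 28 mutants had enough reads to be tested (a mean of at least 50 before sorting), and *bnr1*Δ and *gic1*Δ rose while *rax2*Δ fell (edgeR's quasi-likelihood test, adjusted p of 0.05). Of all 3414 mutants tested in that comparison, 12.2% were called higher and 5.27% lower, so 2 and 1 of 23 are near the background. In In Gfp-, 24 were tested, *bnr1*Δ and *gic1*Δ rose, and *msb3*Δ and *rga1*Δ fell, beside 15.2% higher and 10.1% lower among 3553 mutants. With the replicate number fitted as a block, the calls of *gic1*Δ, *msb3*Δ, and *rga1*Δ in In and of *rax2*Δ in Un were lost. The median log2 fold change of the polarity mutants was −0.61 in Un Gfp- and −0.83 in In Gfp-. On total counts, only *bnr1*Δ was higher, and the other 22 in Un and 23 in In were all called lower, as were 3199 and 3330 of all mutants.

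The same picture appears in the reads themselves. The 28 mutants together took 0.756% ± 0.0603 (SD, n = 3) of Un presort reads and 0.761% ± 0.0414 of those of In presort. After sorting, they took 0.128% ± 0.0405 in Un Gfp- and 0.119% ± 0.0160 in In Gfp-. Most of what was left belonged to *bnr1*Δ: without it, the sum was 0.0126, 0.0153, and 0.0784% in the 3 Un Gfp- libraries and 0.0107, 0.00617, and 0.0406% in those of In Gfp-. The third library of each sorted pool, which was also the shallowest, held more of the non-enriched strains than the other two. Of the tested mutants, 22 of 23 in Un and 23 of 24 in In had a smaller share in every sorted library than in any presort library. The background was 94.2% and 94.4% of all mutants tested. In both, the exception was *bnr1*Δ, whose share was larger in every sorted library, beside 3.72% and 3.83% of all mutants.

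*BNR1* encodes a formin of the bud neck, an actin-nucleating protein that assembles cables in the mother cell. The *bnr1*Δ strain (YIL159W) had 99.1, 70.2, and 78.2 RPM (reads scaled to a library total of 1000000) in Un presort and 831, 998, and 951 in Un Gfp-. In the induced cultures, it had 123, 99.6, and 78.5 RPM before sorting and 967, 1072, and 970 after it. In RPM, the groups were widely separated and the replicates close to each other. Its share of the pool was 11.2 times higher in Un Gfp- and 10.0 times higher in In Gfp-. The TMM factors were 0.108, 0.126, and 0.547 in Un Gfp- and 0.0849, 0.104, and 0.414 in In Gfp-, so replicates lay further apart on the tested scale. By reads, it moved from ranks 1975 to 2552 among all mutants in the presort libraries to ranks 77 to 87 in the sorted ones. On the TMM scale, its log2 fold change was 8.47 ± 0.87 (SE) in Un Gfp- (adjusted p = 0.000402, place 55 of 3414) and 9.01 ± 1.04 in In Gfp- (adjusted p = 1.18e-05, place 59 of 3553). The 95% intervals, 6.52 to 10.43 and 6.82 to 11.21, contain the values of the *ste* mutants.

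Both barcodes of *bnr1*Δ gave the result. With UPTAG reads alone, the log2 fold change was 7.85 ± 1.53 in Un and 8.29 ± 0.67 in In, and with DNTAG reads alone, 8.63 ± 1.10 and 8.40 ± 1.13, each with an adjusted p under the threshold. The sequencing instrument of replicate 1 was of a different model from that of the other replicates. Within replicates 2 and 3, the log2 fold change of *bnr1*Δ was 8.40 (adjusted p = 0.0996) in Un and 8.86 (adjusted p = 0.0259) in In, and in Un, no mutant at all passed with that number of libraries, although 611 had an unadjusted p under 0.05. Without replicate 2, it was 8.08 in Un (adjusted p = 0.0621), again with no mutant called. Replicate 1 alone cannot be tested.

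*BNR1* lies on the left arm of chromosome IX, as does *BAR1*, the target of the reporter, and deletion strains of this arm were frequent among the enriched mutants. Of the 10 strains whose deleted reading frames are numbered nearest to *BNR1* (5 on each side), 5 were called higher in each pool. They include *imp21*Δ (9.05 and 9.38), *coa1*Δ (8.89 and 9.65), and *smu2*Δ (7.15 and 7.73), close to *bnr1*Δ itself, while *ubp7*Δ (−0.26 and −2.05) and *aim20*Δ (−1.62 and −0.94), which stand between them, were not higher. Over the whole arm, 42.7% of 110 mutants were called higher in Un Gfp-, against 11.2% of 3304 elsewhere, and 45.2% of 115 against 14.2% of 3438 in In Gfp-. Per the study's list of top In Gfp- mutants, which does not name *bnr1*Δ, the *imp21*Δ strain (YIL154C) lacked GFP when tested alone. A newly made deletion of that gene was wild type. Among other listed strains of the arm, those of *TIR3*, YIL032C, *PKP1*, *MNT3*, *RNR3*, *FAA3*, *AIR1*, *RPL16A*, and YIL025C were wild type when tested alone. The *rsm25*Δ and YIL012W strains lacked GFP, and a newly made deletion of YIL012W was wild type. The *ssm4*Δ strain had lower basal GFP, also when newly made. For *age2*Δ, the list gives no result. The part of the chromosomal position in the value of *bnr1*Δ was not tested. *AXL2*, which encodes an axial landmark, is the other polarity gene of the arm: *axl2*Δ had log2 fold changes of 0.31 ± 0.62 and −1.80 ± 0.76 and passed in neither pool. In In, *axl2*Δ was called lower with UPTAG (−3.68, adjusted p = 0.0233) or DNTAG reads alone (−1.78, adjusted p = 0.0476). With the tags weighted equally, it was also called lower in In (−2.15, adjusted p = 0.0453). Of all 3553 mutants, these settings called 1598, 551, and 513 lower in In. Of the 7 tested neighbors of *AXL2*, 4 were called higher in each pool, the neighbors having been looked at after the value of *axl2*Δ was known.

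The other formin and the polarisome did not share this enrichment. *BNI1* encodes the formin of the bud tip and the mating projection. The *bni1*Δ strain (YNL271C) had 85.2, 86.1, and 105 RPM in Un presort and 0, 0, and 15.6 in Un Gfp-. In In, it had 69.8, 100.4, and 71.2 before sorting and 0.685, 0.735, and 0 after it. The 2 formin mutants thus started at similar levels and ended far apart, with *bni1*Δ at −2.27 ± 1.11 (adjusted p = 0.164) in Un and −0.84 ± 0.62 (adjusted p = 0.299) in In. The value in Un rests on single libraries: its 3 sorted reads all came from Un Gfp- replicate 3. Without that library, *bni1*Δ had 0 sorted reads and was called lower (adjusted p = 0.0153), as were 366 of 3414 mutants. Without replicate 3 of both groups, it was also called lower (adjusted p = 0.0354), as were 186 of all mutants. Its value was −0.60 without Un Gfp- replicate 1. With UPTAG reads alone, *bni1*Δ was called lower in both pools (adjusted p = 0.0313 and 0.0295). So were 240 of 3414 mutants in Un and 1598 of 3553 in In, where the median was −2.30. With the tags weighted equally, *bni1*Δ was called lower in Un (−2.99, adjusted p = 0.0376), as were 537 of all mutants. Spa2, Pea2, and Bud6 form the polarisome with Bni1, and Bud6 activates the formins. The *spa2*Δ, *pea2*Δ, and *bud6*Δ strains were at 0.18, −0.55, and −1.20 in Un Gfp- and at −1.07, −0.95, and −0.89 in In Gfp-, none past the threshold. In Un, *spa2*Δ had 7389 reads before sorting and 127 after it, and *pea2*Δ had 7728 and 88. The *spa2*Δ strain was counted by its DNTAG alone, and with DNTAG reads alone, its value in Un was −0.38. In In, *spa2*Δ was called lower by DESeq2 (adjusted p = 0.0292), as were 697 of 3475 mutants. On UPTAG reads alone in In, *pea2*Δ (−2.88, adjusted p = 0.0361) and *bud6*Δ (−1.54, adjusted p = 0.0355) were called lower. The median of all mutants in that setting was −2.30.

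*MSB3* encodes a GTPase-activating protein for the secretory GTPase Sec4 that is also needed for actin organization. The *msb3*Δ strain (YNL293W) had 57.8, 65.4, and 82.2 RPM in In presort and 0.152, 0, and 0 in In Gfp-, which is 2 reads in all. Its share over the pooled libraries was 453 times lower (exact 95% counting interval 125 to 3747), and its log2 fold change was −2.85 ± 0.90 (adjusted p = 0.0292). In Un, it had 75.5, 82.3, and 71.0 before sorting and 0.169, 0, and 5.20 after it, with a log2 fold change of −2.73 ± 0.84 that narrowly missed the threshold (adjusted p = 0.0514). The call in In was lost when any library other than In Gfp- replicate 2 was left out, at adjusted p values from 0.0522 (In presort replicate 2) to 0.179 (In Gfp- replicate 1). Pooled shares weight the deepest libraries and cannot be set beside the ratio of mean shares of the typical strain (44.1 times lower). By the pooled measure, the uncalled *bem4*Δ was 468 times lower in In.

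Gic1 and Gic2 are related effectors that bind active Cdc42, and Skm1 and Cla4 are kinases of the family of Ste20. The *gic1*Δ strain (YHR061C) had 354, 324, and 582 RPM in Un presort and 29.5, 49.7, and 109 in Un Gfp-. In In, it had 493, 573, and 427 before sorting and 36.1, 29.4, and 42.9 after it. Its share was thus smaller in every sorted library, by 6.69 times in Un and 13.8 times in In, but less so than that of the typical strain. The log2 fold change was 1.83 ± 0.39 (adjusted p = 0.00969) in Un and 1.85 ± 0.62 (adjusted p = 0.0382) in In. On total counts, it was −2.81 and −3.80 instead.

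The value of *gic1*Δ rests mostly on its DNTAG, since 10.1% of its presort reads came from the UPTAG, and the UPTAG share of all reads varied from 11.2 to 80.3% between libraries. With UPTAG reads alone, the log2 fold change was −0.68 ± 0.73 (adjusted p = 0.528) in Un and 2.21 ± 0.49 (adjusted p = 0.00444) in In. With DNTAG reads alone, it was 1.55 ± 0.41 (adjusted p = 0.0349) and 1.38 ± 0.56 (adjusted p = 0.0702). When both tags of each library were given equal weight, an alternative chosen after seeing the data, it was 1.41 and 2.06, past the threshold in both. Within replicates 2 and 3, it was 1.79 (adjusted p = 0.240) in Un and 1.35 (adjusted p = 0.436) in In. The call in Un was also lost without Un presort replicate 1 (adjusted p = 0.0890) or 2 (adjusted p = 0.0753). That in In was lost without any library but In Gfp- replicate 3, at adjusted p values from 0.0515 (In Gfp- replicate 2) to 0.179 (In presort replicate 1).

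The related *gic2*Δ strain was scarce. It had 61, 32, and 32 reads in Un presort, under the minimum, and 0 in all 3 Un Gfp- libraries, which puts its share at least 31.6 times lower over the pooled libraries (3 counts as the limit of a count of 0). In In, it had 166, 90, and 7 reads before sorting and 0, 0, and 2 after it, with a log2 fold change of −0.56 ± 1.21 (adjusted p = 0.723). The 95% interval of −3.10 to 1.99 contains the value of *gic1*Δ. The *skm1*Δ strain was at −1.07 ± 0.41 (adjusted p = 0.0948) in Un and −0.80 ± 0.57 (adjusted p = 0.285) in In. With UPTAG reads alone, it was called lower in both (−2.07, adjusted p = 0.0276, and −4.83, adjusted p = 0.00199), and with DNTAG reads alone in neither. UPTAG reads alone called 240 of all 3414 mutants lower in Un and 1598 of 3553 in In (median −2.30). With the tags weighted equally, *skm1*Δ was called lower in Un (−1.39, adjusted p = 0.00822), as were 537 of all mutants. The *cla4*Δ strain had at most 22 reads in any presort library and was not tested. Boi1 and Boi2 are related proteins that bind Bem1 and act in exocytosis at the bud. The *boi1*Δ strain, the most abundant of the polarity mutants with 1186 ± 78.0 RPM in Un presort, was at −1.06 ± 0.52 in Un and −1.15 ± 0.67 in In. The *boi2*Δ strain was at −1.14 ± 0.57 and −0.72 ± 0.67, and neither passed in either pool.

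Among the regulators of Cdc42, *RGA1*, *RGA2*, and *BEM3* encode GTPase-activating proteins that switch Cdc42 off. The *rga1*Δ strain (YOR127W) had 296, 187, and 9 reads before sorting in In and 0 in all 3 In Gfp- libraries. Its share was at least 144 times lower over the pooled libraries, a limit that several uncalled mutants also reached (*boi2*Δ, for example, was 182 times lower). The test called it lower (adjusted p = 0.0416), but the fitted log2 value of −9.26 depends on the prior count and is no measure of size. In Un, it had 77, 21, and 75 reads before sorting and 0, 2, and 0 after it (−0.61 ± 1.30, adjusted p = 0.744). The call in In was lost without In presort replicate 1 (adjusted p = 0.0627) and without In Gfp- replicate 1, 2, or 3 (adjusted p = 0.339, 0.0861, and 0.0664). Nearly all of its reads came from the DNTAG (0.301% from the UPTAG).

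The *rga2*Δ strain, which was counted by its DNTAG alone, was at 0.77 ± 0.47 (adjusted p = 0.253) in Un and −0.72 ± 0.57 (adjusted p = 0.336) in In. The *bem3*Δ strain was at −1.73 ± 0.72 (adjusted p = 0.116) and −1.36 ± 0.66 (adjusted p = 0.127). Its sorted reads were uneven: 1.52, 0.742, and 52.0 RPM in Un Gfp-, against 480, 444, and 500 before sorting. Without Un Gfp- replicate 3, it was called lower (log2 −2.75, adjusted p = 0.00389), as were 366 of all 3414 mutants. The *bem4*Δ strain had 350 reads before sorting and 4 after it in Un, and 531 and 1 in In, with log2 fold changes of −0.97 ± 0.86 and −2.99 ± 1.35 that did not pass. *MSB1*, found as a dosage suppressor of budding defects, gave a mutant among the nearest to 0 in both pools. The *msb1*Δ strain (YOR188W) had 876, 906, and 858 RPM in Un presort and 18.9, 18.5, and 77.9 in Un Gfp- (−0.14 ± 0.31). In In, it had 836, 765, and 915 before sorting and 22.1, 7.35, and 42.9 after it (0.24 ± 0.59).

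The remaining regulators could not be assessed. Bem1 is the scaffold that holds Cdc42, its exchange factor, and its effector kinases together. The *bem1*Δ and *rdi1*Δ strains had 0 reads in all 12 libraries, which allows at most 0.287 RPM in the deepest presort library. The *bem2*Δ strain had 0 to 9 reads before sorting and 0 after it.

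Of the mutants of bud-site selection, only *rax2*Δ was called by the main test, and only in Un. Rsr1 is the GTPase of the module and Bud2 its GTPase-activating protein. The *rsr1*Δ strain (YGR152C) had 139, 132, and 128 RPM in Un presort and 4.89, 1.48, and 5.20 in Un Gfp-, and 125, 124, and 131 in In presort and 2.05, 0, and 6.60 in In Gfp-. It was among the 3 polarity mutants nearest to 0 in both pools (0.14 ± 0.53, adjusted p = 0.852, and −0.06 ± 0.53, adjusted p = 0.929). The *bud2*Δ strain was at −1.06 ± 0.63 and −0.28 ± 0.57. Its presort level varied from 154 to 506 RPM in Un, and 96.8% of its presort reads came from the UPTAG.

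Bud3, Bud4, and Axl2 mark the axial site. The *bud4*Δ strain (YJR092W) had 348, 414, and 332 RPM in Un presort and 6.58, 8.16, and 36.4 in Un Gfp- (−0.17 ± 0.36, adjusted p = 0.731). In In, it had 351, 297, and 393 before sorting and 5.56, 6.61, and 26.4 after it (0.28 ± 0.50, adjusted p = 0.673). The 95% intervals were −0.97 to 0.62 and −0.78 to 1.34. The *bud3*Δ strain was at −2.20 ± 0.73 (adjusted p = 0.0650) and −0.81 ± 0.61, neither past the threshold, with 7 sorted reads against 1805 before sorting in Un. It was called lower in Un by DESeq2 (adjusted p = 0.00401), as were 406 of 3347 mutants.

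Bud8, Bud9, and Rax2 mark the poles used in bipolar budding. The *rax2*Δ strain (YLR084C) had 120, 168, and 91.9 RPM in Un presort and 0.169, 0.742, and 0 in Un Gfp-, or 666, 307, and 229 reads against 1, 1, and 0. Its share was 456 times lower over the pooled libraries (exact 95% counting interval 126 to 3767), and its log2 fold change was −3.48 ± 0.85 (adjusted p = 0.0195). In In, it had 100.0, 130, and 172 before sorting and 0.152, 0.735, and 13.2 after it, and its value of −1.76 ± 0.81 did not pass (adjusted p = 0.109). The call in Un was lost without Un presort replicate 1 or 2 (adjusted p = 0.0823 and 0.0694) or Un Gfp- replicate 1 (adjusted p = 0.166). Within replicates 2 and 3, the log2 fold change was −2.81 (adjusted p = 0.297) in Un. By the pooled measure, the uncalled *bni1*Δ was 225 times lower in Un, against 456 times for *rax2*Δ. The *bud8*Δ strain was at 0.31 ± 0.62 and −0.52 ± 0.65, and *bud9*Δ at 0.67 ± 0.54 and −1.50 ± 0.64 (adjusted p = 0.0875). With DNTAG reads alone, *bud9*Δ was called lower in In (−1.68, adjusted p = 0.0222), as were 551 of all 3553 mutants.

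The α-factor treatment itself left no trace that the test detected in the polarity mutants. Before sorting, the 23 mutants tested differed between In and Un by log2 fold changes of −0.32 (*bud2*Δ) to 0.56 (*rga1*Δ), and edgeR called 0 of them and 0% of all 3412, of which 34 had an unadjusted p under 0.05 (DESeq2 also called 0). Nor did the test detect a difference between In and Un in the change from presort to Gfp-: the interaction was called for 0 of 23 polarity mutants and 0% of all 3412 (342 at an unadjusted p under 0.05, and 97 called by DESeq2, none of them a polarity mutant). For *bnr1*Δ, the difference, In minus Un, was 0.59 ± 0.99 with an interval of −1.49 to 2.66, and for *gic1*Δ, it was 0.08 ± 0.71 with an interval of −1.41 to 1.56. With UPTAG reads alone, the interaction was called for *gic1*Δ (3.09, adjusted p = 0.0364) and *bud8*Δ (−10.38, adjusted p = 0.0151), and with DNTAG reads alone, for neither (−0.11 and 0.40). On UPTAG reads, 9 of all 3412 mutants were called higher and 319 lower (median −0.87). The *bud8*Δ strain had 0 UPTAG reads in every In Gfp- library, so its fitted value depends on the prior count and is no measure of size. The only unadjusted p under 0.05 was that of *bud9*Δ (−2.10 ± 0.84, unadjusted p = 0.0214, adjusted p = 0.402), for which all but 2 presort reads came from the DNTAG. It had 1.69, 5.19, and 20.8 RPM in Un Gfp- (10, 7, and 4 reads) and 0.533, 0.735, and 0 in In Gfp- (7, 1, and 0 reads). These groups did not overlap in RPM. It was the 1 polarity mutant of 23 lower in every In Gfp- library, which is near the background of 4.25% of all mutants. Between the Gfp- pools directly, 0 of the 23 were called and none had an unadjusted p under 0.05, beside 0.147% of all mutants called (5, and 6 by DESeq2).

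In the wider list of 30 polarity genes, 22 could be tested in Un Gfp-, of which 6 were called higher and 1 lower, beside 12.2% and 5.27% of all mutants, with a median of 0.28. In In Gfp-, 23 were tested, of which 7 were called higher and 1 lower, beside 15.2% and 10.1% of all mutants, with a median of −0.52. Deletion of *STE20*, which encodes the kinase activated by Cdc42 upstream of the MAPK cascade, gave log2 fold changes of 7.52 ± 1.14 and 7.08 ± 1.22. That of *SHS1*, a septin gene, gave 6.81 ± 0.82 and 6.47 ± 0.94. That of *TPM2*, the gene of the minor tropomyosin on the left arm of chromosome IX, gave 5.30 ± 0.75 and 6.00 ± 0.84. That of *MSB4*, the paralog of *MSB3*, gave 4.71 ± 0.66 and 6.16 ± 0.90, while *msb3*Δ was below the typical strain. That of *ZDS2* gave 3.60 ± 0.59 and 3.61 ± 0.62, and that of *KEL2*, which encodes a kelch-repeat protein, gave 3.00 ± 0.58 and 3.11 ± 0.45. The mean shares of *ste20*Δ, *shs1*Δ, and *tpm2*Δ were larger after sorting in both pools, with wide spreads for *ste20*Δ. It went from 203 ± 52.2 (SD, n = 3) to 961 ± 701 RPM in Un and from 243 ± 20.6 to 471 ± 522 in In. The *shs1*Δ strain went from 99.6 ± 42.4 to 340 ± 85.3 in Un and from 133 ± 9.47 to 201 ± 87.9 in In. For *tpm2*Δ, the values were 232 ± 11.6 to 265 ± 44.3 in Un and 217 ± 17.1 to 279 ± 28.1 in In. That of *msb4*Δ went from 66.2 to 47.8 RPM in Un and from 61.2 to 72.5 in In. Those of *zds2*Δ (48.6 to 15.5 RPM in Un) and *kel2*Δ (49.5 to 9.43) fell in both. The *tos2*Δ strain was called higher in In but not in Un (2.08 ± 0.52, against 0.59 ± 0.61). Its mean share in In was 89.4 RPM before sorting and 6.32 after it. The *bni4*Δ strain, which lacks a bud-neck scaffold, was called lower in Un but not in In (−3.41 ± 0.90, against −1.82 ± 0.76). The interaction did not pass for either (adjusted p = 0.530 and 0.780). Deletion of *FAR1*, whose product links the G protein of the pheromone receptor to the Cdc42 exchange factor, gave −0.81 ± 0.68 and −1.28 ± 0.80 and did not pass.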

How the data were processed

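Per the labels and the methods, UPTAG and DNTAG barcodes were amplified from genomic DNA and sequenced, and the authors used Bowtie2 to match reads with a list of barcodes and an R program to count them. The authors deposited raw counts of reads per mutant and tag. Of 48 count columns, 24 were matched to samples by name and 24 were not used. The tags of a replicate were summed. Gene names of 5651 of 6128 mutants came from a table of the R64 assembly, used for names only. Sorted and presorted groups (3 replicates each) were compared with edgeR 4.0.16 (R 4.3.3), using TMM scaling, its quasi-likelihood test, and a prior count of 0.125. Mutants averaging at least 50 presort reads were tested, with two-sided p-values adjusted by the Benjamini-Hochberg method over all mutants tested (threshold 0.05). The study's methods name DESeq, and DESeq2 1.42.0 was an alternative. The interaction was fitted over all 12 libraries. Shares are in RPM (reads scaled to a library total of 1000000). Intervals are at 95%, and those of counts, like the limit of 3 counts for a count of 0, cover counting error only, since PCR reads are not independent molecules. On simulated counts with the common dispersion of each comparison, the test recovered 100% of mutants raised by 4 on the log2 scale in both comparisons, and 80% (Un) and 58% (In) of those raised by 2. It recovered 88% and 78% of mutants lowered by 4, and 38% and 28% of those lowered by 2. The simulation gave all libraries of a comparison the same dispersion (0.146 in Un and 0.158 in In). The dispersion fitted among presort libraries was 0.0538 and among Gfp- libraries 0.511, so these rates may overstate the recovery in these data. All listed mutants were accounted for. A mutant of the wider list that was called lower in In is not reported here. Values by replicate were given for those called and for the 3 nearest to 0 in each sorted comparison, as well as for some others chosen after their values were seen. The members and lists were chosen with earlier results of these data known. Alternatives were other scalings, count minimums, DESeq2, each tag alone, the replicate number as a block, and leaving out libraries. Tables were made with Python 3.11.15, pandas 2.3.3, numpy 2.4.6, and scipy 1.17.1.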

Additional observations from a re-analysis of the deposited data

How the results depend on the processing

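The enrichment of *bnr1*Δ was called in In Gfp- under every setting in which it was tested (log2 3.32 to 9.55; it was not tested with at least 50 reads in every presort replicate) and in Un Gfp- under all but those without replicate 1 or 2 of both groups. On total counts, 1 polarity mutant was called higher and 22 lower in Un, and 1 and 23 in In, and these log2 values changed sign: in Un, *rsr1*Δ (−5.12), *axl2*Δ (−4.94), *bud8*Δ (−5.00), *bud9*Δ (−4.36), *rga2*Δ (−3.72), *gic1*Δ (−2.81), and *spa2*Δ (−4.03), and in In, *bud4*Δ (−5.00), *msb1*Δ (−5.19), and *gic1*Δ (−3.80). The scaling itself sets that sign, since the median mutant is then far below 0. With UPTAG reads alone, 1 was higher and 4 lower in Un (355 and 240 of all 3414 mutants). In In, 11 were lower (1598 of all mutants, against 359). The value of *gic1*Δ turned to −0.68 in Un. The interaction on these reads called *gic1*Δ (3.09) and *bud8*Δ, 1 in each direction (9 higher and 319 lower of all 3412). With DNTAG reads alone, 0 were lower in Un (145 of all 3414 mutants). In In, 1 was higher and 6 lower (580 and 551 of 3553). With the tags weighted equally, added after seeing the data, 7 were lower in Un (537 of 3414) and 4 in In (513 of 3553). DESeq2 called 4 lower in each pool (406 of 3347 in Un and 697 of 3475 in In). Without a presort minimum, 2 were lower in Un (216 of 4221) and 1 higher in In (599 of 4232). With at least 50 reads in every presort replicate, 2 were lower in Un (183 of 3128). In In, 1 was then higher and 0 lower (363 and 205 of 2315). Leaving out libraries gave 0 to 2 higher and 0 to 5 lower in Un, and 1 to 2 higher and 0 to 2 lower in In. Among all mutants, it gave 0 to 575 higher and 0 to 366 lower in Un, and 198 to 600 and 0 to 405 in In. Apart from the interaction on UPTAG reads, the count of polarity mutants called stayed at 0 in the comparisons between In and Un. The causes were not tested, apart from the scaling.

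The replicate numbers were not taken to pair the samples, since in no comparison did every pair correlate at over 0.1: deviations from the group means of sorted and presorted libraries of the same number correlated at 0.239, −0.00197, and 0.290 in Un and −0.0505, −0.0776, and 0.0599 in In. Between In and Un, the correlations were 0.574, −0.632, and −0.671 before sorting and −0.00337, 0.191, and 0.372 after it. This check cannot settle the pairing, since the deviations rest on 3 libraries per group and on summed tags. The UPTAG share varied, at 54.7, 67.4, and 20.2% in Un presort and 38.6, 20.7, and 56.3% in In presort. With the replicate block, *bnr1*Δ was the 1 polarity mutant called higher in In and 0 were called lower (12 of all mutants were called lower, against 359, and 316 higher, against 540), with *gic1*Δ (1.65), *msb3*Δ (−2.98), and *rga1*Δ not called (adjusted p = 0.265, 0.286, and 0.173). In Un, 98 of all mutants were called lower, against 180, *rax2*Δ was not called (−3.48, adjusted p = 0.0555), and *bem3*Δ was called lower (−1.92, adjusted p = 0.0358). The least resolved values are those of strains with few sorted reads, for which a depletion beyond that of the typical strain was often not detectable at this depth.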
